A study of Mus musculus with 9 samples.

Results

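Retinoid dehydrogenases oxidise retinol, the alcohol form of vitamin A, to retinal, or reduce retinal back to retinol, and Aldh1a1 oxidises retinal further to retinoic acid. They were followed across 3 kinds of mouse liver sample by 9 gene symbols of the array, Rdh9, Rdh16, Rdh7, Rdh5, Rdh10, Rdh11, Rdh12, Rdh14 and Aldh1a1. All 14 probes that the array's own annotation gives these symbols were taken, of 45281 probes in all. PV was the ring of perivenous hepatocytes that holds glutamine synthetase, and NPV was the remainder of the hepatic acinus, zones 1+2. SC was tissue scraped undissected from the slide. Each group had 3 samples of mouse liver, fixed on glass, and the 6 PV and NPV samples were lifted by laser capture microdissection, which cuts chosen cells from a section under a microscope. No treatment, genotype or transgene is named for any of the groups. The sources used here do not give the strain, sex or age of the mice, the number of animals, or how the PV cells were recognised.

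As background, the liver holds most of the body's vitamin A. Stellate cells store it as retinyl esters, hepatocytes take up dietary retinoid and secrete retinol on the carrier Rbp4, and retinoic acid acts through the nuclear receptors of the RAR and RXR families. The first oxidation, retinol to retinal, is reversible and is shared among many short-chain dehydrogenases, which differ in cofactor and in the cis or trans form of retinoid they use. Some of them, among them the relatives of Rdh9, also oxidise hydroxysteroids. The second oxidation, by Aldh1a1 and its relatives, is irreversible. Hepatocytes around the central vein and those near the portal tract are known to carry different sets of metabolic enzymes.

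The family was put together around Rdh9, whose level in PV against NPV had stood out in an earlier look at the same arrays. The values of Rdh9 between the groups, and those of Aldh1a1, are therefore given as a description, with no test. For the other members the adjusted p-values come from limma fitted to all 13532 genes tested. Of the 14 probes 11 passed the detection filter (detected at p under 0.05 by 3 arrays or more), and they stood for 8 of the 9 genes. Rdh12 was the gene that did not pass. Where a gene had several probes, the brightest over the 9 arrays represents it, and the other probes are described beside it. Levels are log2 intensities after background correction, and levels of different genes are not compared, because probes differ in binding.

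Each array detected 16819 to 18721 probes, and their lowest detected level was 5.05 to 5.27 on the log2 scale. The 3 arrays numbered 3 stood apart within their groups: over all genes tested, which are no replicates of one another, their r with the other arrays of the group was 0.947 to 0.959, whereas numbers 1 and 2 had an r of 0.986 to 0.988 with each other. The 3 arrays that carry the same number in their labels are called a set, and differences are also given within each set. The level of Glul, the glutamine synthetase gene, was 13.73, 12.81 and 12.88 in PV 1 to 3, against 11.09, 10.94 and 10.48 in NPV 1 to 3, and 11.58, 11.70 and 11.44 in SC 1 to 3. Its levels match the labels of the captured compartment. Of 9 markers of pericentral hepatocytes, 8 were higher in PV than in NPV (median log2 difference 1.27, against 0.0014 over all genes), and 8 of 8 periportal markers were lower (median -0.55). By limma 0 of either list passed, and with the replicate number as a block 6 of the pericentral list did, where 0.318% of all genes did. The hepatocyte markers had a median difference of -0.063 (6 of 6 detected). In tissue pieces of this kind, more cells of a type and more RNA per cell cannot be told apart.

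Rdh9, also known as Crad3, is a short-chain dehydrogenase that acts on cis-retinol and on hydroxysteroids. Its scanner intensity was 2223, 4586 and 3722 in PV 1 to 3, against 541, 944 and 743 in NPV 1 to 3, and 1067, 1543 and 1176 in SC 1 to 3. After normalization its level was 11.59, 11.55 and 11.38 in PV 1 to 3, against 9.48, 9.93 and 9.59 in NPV 1 to 3, and 10.33, 10.41 and 10.07 in SC 1 to 3. Every PV array lay above every SC array, and every NPV array lay below every SC array. As mean log2 intensity ± SD of 3 arrays, PV had 11.51 ± 0.11, NPV had 9.67 ± 0.23 and SC had 10.27 ± 0.18. The difference was 1.84 between PV and NPV (SE 0.17, 3.59-fold), 1.24 between PV and SC (SE 0.17, 2.36-fold) and -0.60 between NPV and SC (SE 0.17, 1.52-fold lower in NPV). Within sets 1 to 3, PV exceeded NPV by 2.11, 1.62 and 1.79. Without the arrays numbered 3 the difference between PV and NPV was 1.87. Among the 13532 genes tested, 18 had a more positive difference between PV and NPV than Rdh9.

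Rdh16, also known as Crad1, is a close relative of Rdh9 that oxidises cis-retinol and androgens. Its level was 10.89, 10.58 and 10.71 in PV 1 to 3, against 10.19, 10.02 and 10.11 in NPV 1 to 3, and 10.57, 10.28 and 10.59 in SC 1 to 3. The PV arrays lay above the NPV arrays without overlap, and the SC arrays lay between the group means, overlapping PV. PV minus NPV was 0.62 (SE 0.15, 1.54-fold, 95% interval 0.27 to 0.97), with an adjusted p of 1.00, and of 0.0948 with the replicate number as a block. Rdh16 therefore did not pass in either fit. With the block its SE was 0.11. The difference was 0.70, 0.56 and 0.59 in sets 1 to 3, about as even as that of Rdh9 but smaller. PV minus SC was 0.24 (SE 0.15) and NPV minus SC was -0.38 (SE 0.15, 3 of 3 sets), and neither passed (adjusted p = 1.00 for each).

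Rdh7, also known as Crad2, is the remaining measured relative of Rdh9 of the Crad type, and its groups overlapped. Its level was 14.00, 13.83 and 14.46 in PV 1 to 3, against 13.92, 13.75 and 14.47 in NPV 1 to 3, and 13.79, 13.88 and 14.24 in SC 1 to 3. The 3 groups overlapped throughout, and the arrays numbered 3 were the highest in each group. PV minus NPV was 0.049 (SE 0.25, 95% interval -0.52 to 0.61; adjusted p = 1.00). PV minus SC was 0.12 and NPV minus SC 0.075 (SE 0.25, adjusted p = 1.00 for each). A second Rdh7 probe gave 0.074 for PV minus NPV, -0.065 for PV minus SC and -0.14 for NPV minus SC, all within 1 SE of 0.18.

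**Figure D1:**
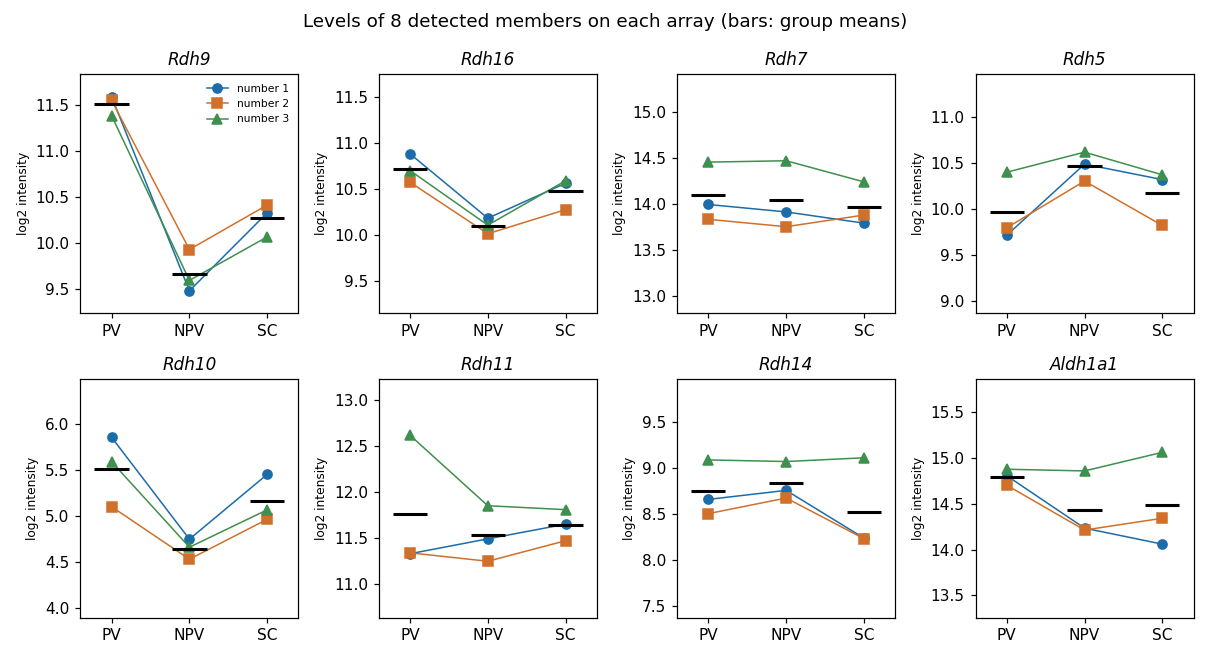
Level of each of the 8 members past the detection filter on each of the 9 arrays, as log2 intensity (vertical axis, the same span of 2.6 units in each panel) in PV, NPV and SC (horizontal axis). Points joined by a line share a replicate number and black bars are group means. Rdh9, Rdh16, Rdh10, Rdh11 and Aldh1a1 have their highest mean in PV and their lowest in NPV, and Rdh5 has the opposite order. Rdh10 was not detected on the NPV arrays. Rdh11 is highest on PV 3.

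These 3 Crad genes are neighbours on mouse chromosome 10. In the order of the RefSeq annotation of GRCm38.p6, Rdh1, Rdh9 and Rdh16 are followed by Rdh18-ps, Rdh19, Rdh16f2, Rdh7 and Sdr9c7, with Hsd17b6 farther along. Rdh1 was detected on 1 array of each group with its brightest probe (level 4.90 ± 0.40 in PV, 4.94 ± 0.26 in NPV), and Rdh19 was detected on 0 of 9 arrays. Rdh18-ps and Rdh16f2 had 0 probes under those names. Sdr9c7, an oxidoreductase of the same gene cluster, chosen after its values were seen, had a difference of -0.53 between PV and NPV (SE 0.45). Hsd17b6, which oxidises hydroxysteroids and retinol, had a level of 11.87, 12.45 and 11.57 in PV 1 to 3, against 12.53, 12.89 and 12.59 in NPV 1 to 3. Every PV array lay below every NPV array (PV minus NPV -0.70, SE 0.27; adjusted p = 1.00, and 0.114 with the block). Along the cluster the measured differences ran from 1.84 at Rdh9, which was chosen for this value, to -0.70 at Hsd17b6. The other genes measured here did not pass in either fit, so whether neighbours share a direction cannot be told.

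The sequences just before the transcription starts of Rdh9, Rdh16 and Rdh7 are shown because the 3 genes are relatives whose values differ. They come from RefSeq, build GRCm38.p6, which held windows for 8 of the 9 members. Each line gives the 250 bases before a start, written 5′ to 3′ on the gene's own strand. For Rdh9 the window is chr10:127776155-127776404 on the + strand, for Rdh16 chr10:127800903-127801152 on the + strand, and for Rdh7, at the downstream of its 2 annotated starts, chr10:127888734-127888983 on the - strand. Capitals in Rdh9 and Rdh16 mark bases that are the same in the alignment of that pair, and capitals in Rdh7 mark bases that are the same as in Rdh9.
Rdh9: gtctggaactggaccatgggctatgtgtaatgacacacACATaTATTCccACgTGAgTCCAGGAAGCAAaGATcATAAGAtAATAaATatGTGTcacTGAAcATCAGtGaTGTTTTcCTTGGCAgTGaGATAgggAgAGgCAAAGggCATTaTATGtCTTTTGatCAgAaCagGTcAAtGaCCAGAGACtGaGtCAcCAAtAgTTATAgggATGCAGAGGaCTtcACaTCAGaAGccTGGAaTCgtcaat
Rdh16: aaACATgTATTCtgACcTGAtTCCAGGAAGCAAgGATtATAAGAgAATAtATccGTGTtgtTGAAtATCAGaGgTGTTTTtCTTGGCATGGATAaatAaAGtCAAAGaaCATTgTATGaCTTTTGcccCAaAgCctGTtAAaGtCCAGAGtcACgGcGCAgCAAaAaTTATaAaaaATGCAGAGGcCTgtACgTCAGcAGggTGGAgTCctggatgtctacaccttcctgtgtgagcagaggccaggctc
Rdh7: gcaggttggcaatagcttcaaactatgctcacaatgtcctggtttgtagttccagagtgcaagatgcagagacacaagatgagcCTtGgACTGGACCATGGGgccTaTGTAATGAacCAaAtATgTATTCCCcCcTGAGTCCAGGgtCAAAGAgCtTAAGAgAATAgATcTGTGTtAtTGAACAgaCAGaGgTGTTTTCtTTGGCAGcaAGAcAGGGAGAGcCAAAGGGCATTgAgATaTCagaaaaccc
In the best local alignment Rdh9 and Rdh16 shared 151 of 210 aligned positions (71.9%), and Rdh9 and Rdh7 shared 123 of 158 (77.8%). Among the other 32850 windows in the table, that of Rdh16 scored highest against Rdh9 (86) and that of Rdh7 second (85), while the third scored 26. The Rdh7 alignment covers bases 3 to 158 of the Rdh9 window and leaves out those nearest the start, while the Rdh16 alignment covers bases 39 to 244. At its upstream start Rdh7 scored 14 (60 of 101 positions the same). The windows of Rdh5, Rdh11, Rdh12, Rdh14 and Aldh1a1 scored 9 to 12.

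The 250 bases of each window were searched on both strands for 5 short motifs, chosen after the sequences were read. AGGTCA, a half-site of nuclear receptors, was in 14.02% of all 32851 windows, and in those of Rdh9, Rdh16, Rdh7 (at its other start) and Rdh11. Its inverted repeat with 1 base between, AGGTCANTGACCT, was in 2 of all windows (0.01%) and in 0 of the members. The same repeat without its last letter, AGGTCANTGACC, a form fitted to what the Rdh9 window holds, was in 8 of all windows (0.02%). Among the members with a window it was in that of Rdh9, as AGGTCAATGACC, at positions -79 to -68 counted from the start. CTTTGAT and CTTTGAA, forms of the TCF/LEF motif of Wnt signalling, were in 3.21% and 4.46% of all windows. Neither was in the window of Rdh9, Rdh16 or Rdh7, and CTTTGAA was at 2 places in that of Aldh1a1 at its upstream start. These are matches of letters in short windows. The letters of the array probes were not used here, and whether a probe of one Crad gene also binds the transcript of another was not tested.

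Rdh10 oxidises all-trans retinol and is the enzyme that starts retinoic acid synthesis in the mouse embryo. It was dim: its scanner intensity was 98.3, 109 and 136 in PV 1 to 3, against 70.0, 69.3 and 77.9 in NPV 1 to 3, and 92.1, 93.8 and 89.2 in SC 1 to 3. It was detected on 3 of 3 PV arrays, 0 of 3 NPV arrays and 2 of 3 SC arrays, so it entered the tested genes mainly through PV, the group where it is high. Its level was 5.86, 5.10 and 5.59 in PV 1 to 3, against 4.75, 4.53 and 4.66 in NPV 1 to 3, and 5.45, 4.97 and 5.07 in SC 1 to 3. Every PV array lay above every NPV array. Since NPV was not well above background, only a bound on the means can be given. The PV mean of 5.52 was at least 1.27-fold higher than NPV, against a mean of 5.17 for the lowest detected level on the NPV arrays. This bound does not hold in each set, since PV 2, at 5.10, lay below the lowest detected level of NPV 2 (5.27). The fitted PV minus NPV difference was 0.87 (SE 0.22; 1.11, 0.57 and 0.93 in sets 1 to 3; adjusted p = 1.00). With the block its adjusted p was 0.0487, from which nothing is read because the gene entered the test through PV, and without correcting background its difference was 0.39. The fitted NPV minus SC difference was -0.52 (SE 0.22) and that of PV minus SC 0.35 (SE 0.22), with an adjusted p of 1.00 for each. Between NPV and SC no lower bound could be given, because the SC mean of 5.16 did not exceed the 5.17 of the NPV arrays. Markers of central vein endothelium, which lines the vein that PV surrounds, moved the same way as Rdh10. All 6 of the 7 that were measured were higher in PV than in NPV (median 1.28), and Wnt9b was not tested. By limma 0 passed, and 4 had an unadjusted p under 0.05, against 304 of all 13532 genes. With the block 2 passed, Cdh13 and Lhx6, where 0.318% of all genes did. Both were detected on 3 of 3 PV arrays but 1 of 3 NPV arrays, so nothing is read from these calls. The summed linear level of the 6 was 561 to 2425 in PV and 274 to 727 in NPV. Of 14 measured stellate and fibroblast markers 9 were higher in PV (median 0.32), with a summed linear level of 13743 to 20711 in PV and 13406 to 14456 in NPV. Their part in the Rdh10 difference was not tested.

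Rdh5 is a cis-retinol dehydrogenase best known from the pigment epithelium of the eye, and its group means ran opposite to those of Rdh9. Its level was 9.72, 9.80 and 10.40 in PV 1 to 3, against 10.49, 10.31 and 10.62 in NPV 1 to 3, and 10.32, 9.82 and 10.37 in SC 1 to 3. PV was below NPV within each set, by -0.77, -0.51 and -0.22, although PV 3 lay above NPV 2. PV minus NPV was -0.50 (SE 0.23, 95% interval -1.03 to 0.031; adjusted p = 1.00, and 0.322 with the block). The interval is that of the fit without the block, and with the block the SE was 0.15. PV minus SC was -0.20 (SE 0.23) and NPV minus SC was 0.30 (SE 0.23; 3 of 3 sets), and neither passed (adjusted p = 1.00 for each). A second Rdh5 probe was detected on 1 of 9 arrays and did not enter the test.

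Rdh11, Rdh12 and Rdh14 are related enzymes that mainly reduce retinal to retinol. The level of Rdh11 was 11.33, 11.34 and 12.62 in PV 1 to 3, against 11.49, 11.24 and 11.85 in NPV 1 to 3, and 11.65, 11.47 and 11.81 in SC 1 to 3. PV 3 stood above the other 8 arrays, and with the second Rdh11 probe it did so too, at 10.42 where the other 8 arrays reached at most 9.55. The array numbered 3 was also the highest of its group in NPV and in SC. PV minus NPV was 0.23 (SE 0.34; -0.16, 0.092 and 0.77 in sets 1 to 3; adjusted p = 1.00), and it turned to -0.19 without PV 3 and to -0.030 without the arrays numbered 3. PV minus SC was 0.12 (SE 0.34), and -0.30 without PV 3. NPV minus SC was -0.11 (SE 0.34).

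Rdh14 had a level of 8.66, 8.51 and 9.09 in PV 1 to 3, against 8.76, 8.68 and 9.07 in NPV 1 to 3, and 8.24, 8.23 and 9.11 in SC 1 to 3. The groups overlapped, and the array numbered 3 was the highest of its group in all 3 groups. PV minus NPV was -0.083 (SE 0.27, 95% interval -0.71 to 0.54), and 0.16 when arrays were scaled by their medians. PV minus SC was 0.22 (SE 0.27) and NPV minus SC 0.31 (SE 0.27), and the 3 comparisons each had an adjusted p of 1.00. Its second probe gave -0.11 for PV minus NPV, 0.12 for PV minus SC and 0.22 for NPV minus SC. Rdh12 had 2 probes, of which one was detected on 1 of 9 arrays, in NPV, and the other on 0 of 9. Their levels of 4.43 to 5.18 on the log2 scale lay at the lower edge of detection.

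Aldh1a1, the retinal dehydrogenase that makes retinoic acid, is an abundant hepatocyte enzyme. Its level was 14.80, 14.70 and 14.87 in PV 1 to 3, against 14.23, 14.21 and 14.85 in NPV 1 to 3, and 14.06, 14.34 and 15.06 in SC 1 to 3. In sets 1 and 2 PV was the highest of the 3 groups, whereas in set 3 SC was, so the groups overlapped. PV minus NPV was 0.36 (SE 0.28, and 0.17 with the block), with 0.57, 0.49 and 0.019 in sets 1 to 3. PV minus SC was 0.31 (SE 0.28) and NPV minus SC -0.052 (SE 0.28). Without the arrays numbered 3, PV minus NPV was 0.52 and PV minus SC was 0.54.

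**Figure D2:**
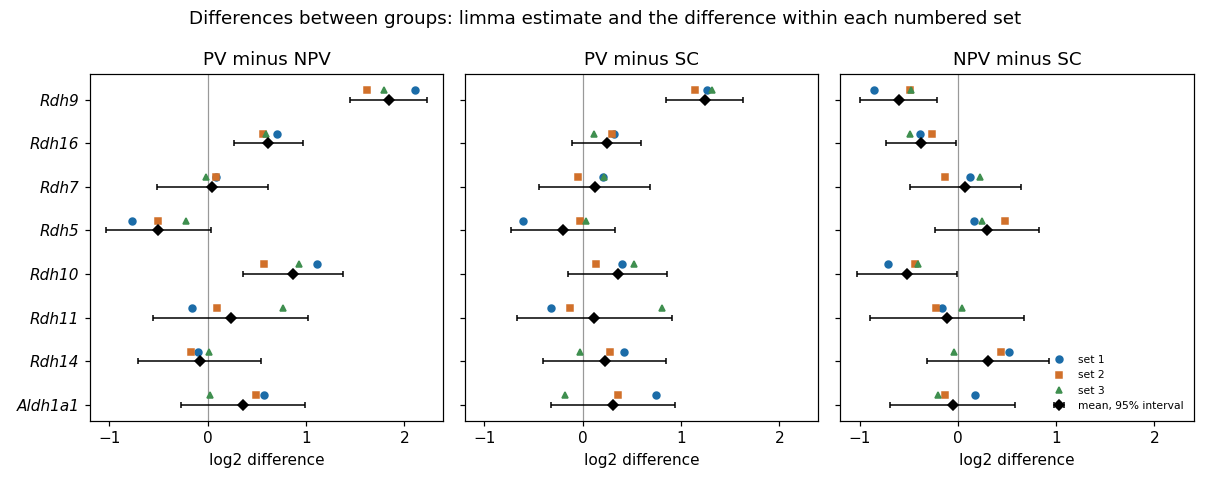
Log2 difference between groups (horizontal axis) of the 8 members (rows), in 3 panels for PV minus NPV, PV minus SC and NPV minus SC. Black diamonds and bars are the limma estimate with its 95% interval and coloured points are the differences within sets 1 to 3; the PV minus NPV difference of Rdh9 is 1.84 and lies above the fitted one of each other member in each set, that of Rdh10 having only a lower bound.

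Whether Rdh9 stands alone was put in values by setting its PV minus NPV difference beside that of each other member within each set. It exceeded that of Rdh16 by 1.41, 1.06 and 1.20 in sets 1 to 3. Over the fitted difference of Rdh10 it was larger by 1.00, 1.05 and 0.86, but Rdh10 was below background on the NPV arrays, so its own difference has only a lower bound and these gaps are not exact. It exceeded Rdh5 by 2.88, 2.13 and 2.01, and the remaining members by 1.03 to 2.27. For PV minus SC its lead over the other 7 was 0.51 to 1.87. For NPV minus SC it was lower than Rdh7, Rdh5, Rdh11, Rdh14 and Aldh1a1 in each set, could not be ranked against Rdh10, and lower than Rdh16 in sets 1 and 2 but not in set 3 (a gap of 0.0094). Rdh9 thus had the largest fitted difference between PV and NPV of the 8, while Rdh16 had the same order of groups, PV above SC above NPV, in 3 of 3 sets. The fitted values of Rdh10 had this order too. Because Rdh10 was not detected on the NPV arrays, its order of SC and NPV is not established. Because Rdh9 was chosen for its PV minus NPV difference, these gaps are a description.

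Of the 9 members, 8 were tested between PV and NPV. By limma 1 passed, Rdh9 itself, where 0.0222% of all genes did, and nothing is read from this because that comparison chose the gene. With the block 2 passed, Rdh9 and Rdh10, where 0.318% of all genes did, and nothing is read from this either, since Rdh10 entered the test through PV. Between PV and SC 0 passed by limma, where 0% of all genes did (1 member, Rdh9, at an unadjusted p under 0.05, against 158 of all 13532 genes). With the block 1 passed, Rdh9, where 0.0813% of all genes did. Nothing is read from either result, because the PV arrays that chose the gene are used again. Between NPV and SC 0 passed by limma and 0 with the block, where 0% of all genes passed in either fit. At an unadjusted p under 0.05 by limma there were 3 members, Rdh9, Rdh16 and Rdh10, against 211 of all 13532 genes. Nothing is read from this count, because the NPV arrays were also used to choose Rdh9, and Rdh10 was not detected on them. The groups did not overlap for 3 members between PV and NPV (5.87% of all genes), for 1 between PV and SC (3.7%) and for 3 between NPV and SC (4.21%). The 3 were Rdh9, Rdh16 and Rdh10 in both cases, and the 1 was Rdh9. Nothing is read from these counts, because Rdh9 was chosen on these arrays and Rdh10 entered the test mainly through PV. The median PV minus NPV difference of the 8 was 0.30, against 0.0014 over all genes. Nothing is read from this median, because the 8 include Rdh9, chosen for this difference, and Rdh10, which entered the test through PV. Each group enters 2 of these comparisons, so their counts are not separate evidence.

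Among the genes whose levels over the 9 arrays were most like those of Rdh9, by Pearson's r over 10877 genes, were Tnfrsf19 (0.977), Sp5 (0.969), Nxpe2 (0.960) and Gstm2 (0.957). The r is a description, since the arrays share groups and sets. Differences of genes chosen this way are a description too, since the choice favours genes with the same order of groups. Nxpe2, of a little-studied gene family, had a PV minus NPV difference of 1.08, and Gstm2, a glutathione transferase, one of 1.32. The transcription factor Sp5, a Wnt target, differed by 2.32, and Tnfrsf19, a TNF receptor family member, by 2.08. Those most like Aldh1a1 were Fermt1 (0.970), Klhl8 (0.962) and Zfp644 (0.959), with PV minus NPV differences of 0.18, 0.60 and 0.23.

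Other genes of retinoid metabolism were taken from 6 lists. Of 17 other retinol dehydrogenases and reductases 7 were tested, and 0 passed between PV and NPV by limma (1 at an unadjusted p under 0.05) or with the block (median difference -0.013). Adh1, the abundant liver alcohol dehydrogenase, which also oxidises retinol, differed by 0.068 (SE 0.14), with levels of 14.43 to 14.77 in PV and 14.47 to 14.57 in NPV. Among 6 enzymes of retinal oxidation 4 were tested, 0 passed (0 at an unadjusted p under 0.05) and the median was -0.089. Aox3, an aldehyde oxidase, differed by -0.19 (SE 0.14) and Aldh8a1, a retinal dehydrogenase, by -0.097 (SE 0.30).

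Retinoid storage and transport genes numbered 19, of which 13 were tested, with a median PV minus NPV difference of -0.092. By limma 0 passed (1 at an unadjusted p under 0.05), and with the block 1, Lpl, rose. Lpl, the lipoprotein lipase that releases fatty acids and retinyl esters from lipoproteins, had a level of 12.00, 11.88 and 10.34 in PV 1 to 3, against 10.06, 10.21 and 9.42 in NPV 1 to 3. Its difference was 1.51 (SE 0.52, 2.85-fold; adjusted p = 1.00, and 0.0150 with the block), in 3 of 3 sets. The other 12 differed by -0.51 to 0.19.

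Of 5 genes of retinoic acid breakdown 3 were tested and 0 passed (0 at an unadjusted p under 0.05; median 0.37). Cyp26a1, the retinoic acid hydroxylase that is itself induced by retinoic acid, had a level of 8.15, 8.29 and 8.47 in PV 1 to 3, against 7.55, 7.74 and 8.50 in NPV 1 to 3. Its difference was 0.60 and 0.55 in sets 1 and 2 and -0.029 in set 3 (mean 0.37, SE 0.37). Cyp2s1, another P450 that acts on retinoic acid, was detected on 1 of 3 PV arrays and 2 of 3 NPV arrays and differed by -0.56 (SE 0.30). Of 6 receptors 5 were tested and 0 passed (0 at an unadjusted p under 0.05; median -0.019), with Rarg at 0.24 (SE 0.20) and Rarb at 0.20 (SE 0.41). Of 11 retinoic acid target genes 6 were tested and 0 passed (0 at an unadjusted p under 0.05; median 0.14), among them Rarres1, a gene induced by retinoids, at 0.20 (SE 0.30). With the block 0 of the genes in these 3 lists passed as well. Between PV and SC, and between NPV and SC, 0 genes of the 6 lists passed in either fit, with 0 at an unadjusted p under 0.05 for PV and SC and 1 for NPV and SC by limma.

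**Figure D3:**
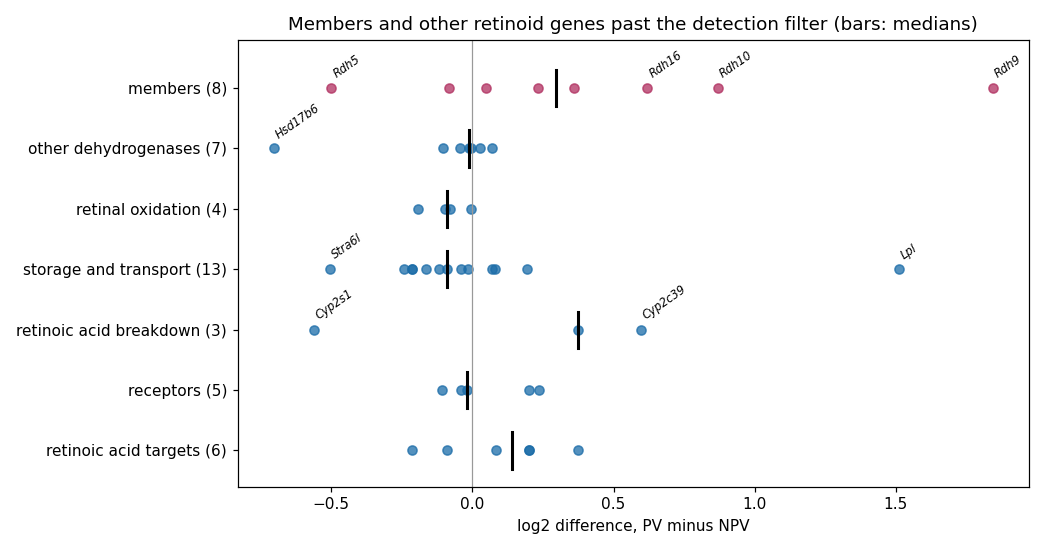
PV minus NPV difference of single genes on the log2 scale (horizontal axis) for the 8 members and for 6 lists of other retinoid genes (rows, with the number tested). Points are genes, black bars are medians and genes beyond 0.49 in size are named; Rdh9 at 1.84 and Lpl at 1.51 lie farthest to the right, and Hsd17b6 at -0.70 farthest to the left.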

How the data were processed

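Illumina mouse bead arrays with a single dye, Cy3, were read in 9 samples. Per the file headers the deposited table held an intensity and a detection p-value per probe and array, not normalized between arrays. The software was BeadStudio 3, per the submitters' processing notes. The authors' deposited value table, in linear intensity, had been scaled between arrays by steps that are not stated. It served as an alternative.

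Background correction, quantile normalization and log2 were done with limma 3.58.1 (neqc, offset 16) in R 4.3.3. Probes detected (p under 0.05) on at least 3 of 9 arrays were kept (19425), and the brightest probe represented each of 13532 genes. Names were updated through RefSeq GRCm38.p6, with 8960 probes left as named. One limma model of the 3 group means gave the contrasts, 2-sided, with Benjamini-Hochberg adjustment over all genes and a threshold of 0.05. The labels tie no sample to an animal, so p-values reflect sample-to-sample spread that may be technical. Arrays of the same number deviated together from their group means (r = 0.581 to 0.885 in 9 of 9 pairs across genes, against -0.76 to 0.42 for other numbers), so the number was taken as a pairing and the model with it as a block is given where it changes a call. Unless the block is named, SEs and 95% intervals are from the model without it. For every tested member the SE was smaller with the block. Sequences were aligned with Biopython 1.88. The members, lists and tests were chosen with earlier results of these data known. The named genes were the members, Glul, the genes most like Rdh9 and Aldh1a1, and, of each list, the genes called or else the 2 with the smallest p between PV and NPV. A result that this rule takes is not reported here. The fits were tested on simulated data. The number of arrays limits the precision.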

Additional observations from a re-analysis of the deposited data

How the results depend on the processing

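The difference of Rdh9 between PV and NPV was 1.72 to 2.01 over 30 alternatives, as a description, since this difference chose the gene. With single arrays left out, 0 to 1 members passed between PV and NPV. It was 0 without PV 1, PV 2, NPV 1, NPV 3, SC 1 or SC 2, with 8 arrays in place of 9; the cause was not tested. With the replicate number as a block 2 members passed between PV and NPV (Rdh9 and Rdh10) and 1 between PV and SC (Rdh9). These calls support nothing, since Rdh9 was chosen on the PV arrays and Rdh10 entered the test through them, and the block changed no other call of a member. In an alternative chosen after seeing the data, leaving out single arrays with the block, 0 to 1 members passed between PV and SC, 1 of them without PV 3 or NPV 2, and 0 to 0 between NPV and SC. Rdh10 passed in 1 of 28 alternatives, and could not be fitted when a stricter filter removed it. Over all genes the count between PV and NPV was 3, and 43 with the block. Without the block it was 24 without the arrays numbered 3, 2 to 7 in the other alternatives with all arrays, and 0 to 6 with 1 array left out. With the block it was 14 to 78 with 1 array left out (78 without PV 3) and 42 without the arrays numbered 3. Scaling arrays by their medians moved the median of all genes to 0.19 between PV and NPV, where Rdh16 was at 0.82 and Rdh14 at 0.16. Signs of Rdh7, Rdh11 and Rdh14 between PV and NPV turned in 4, 4 and 3 of 30 alternatives, with no call. Rdh10 and Rdh12 lie near background, which limits both.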
